A study of Ictalurus furcatus with 6 samples.

Results

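A group of 10 genes of tryptophan, tyrosine and phenylalanine breakdown was looked up by name in the blue catfish (*Ictalurus furcatus*) sperm expression table, and 9 of the 10 were found among its 27416 features, 1 feature each. They are *tdo2b*, *ido1*, *kmo*, *pah*, *tat*, *hpda*, *hpdb*, *hgd* and *fah*, and no feature carried the name *tdo2a*. In its edgeR test, which used libraries of this same experiment, the study reports *tdo2b*, *hpda* and *ido1* as downregulated after cryopreservation. Their direction below is thus not independent of that report. All 9 had lower mean values in cryopreserved than in fresh-frozen sperm, by 2.27-fold to 8.72-fold, but 0 of the 9 passed the test for differential expression. Of all features tested, 0% were called lower and 1.54% higher, and their median log2 fold change was itself negative, at -1.02. At the same thresholds, edgeR on read counts gave the study calls in both directions. Since the test used here called no feature lower, the 0 of 9 does not set these genes apart and does not weigh against the study's calls.

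These enzymes dispose of the aromatic amino acids. Tryptophan is opened by the dioxygenases encoded by *tdo2* and *ido1* into the kynurenine pathway, in which the *kmo* product hydroxylates kynurenine on the way to NAD. Phenylalanine is turned into tyrosine by *pah*, and tyrosine is then broken down in sequence by the products of *tat*, *hpda* or *hpdb*, *hgd* and *fah*, which ends in fumarate and acetoacetate. In vertebrates most of this route is known from liver and kidney, while *ido1* in mammals is best known from immune cells.

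Sperm was taken from dissected testes of blue catfish males of strain D&B, so it is testicular sperm and could hold other cells of the testis. Fresh-frozen samples F2 and F3 were flash-frozen in liquid nitrogen, and cryopreserved samples C2, C3 and C5 were diluted, mixed with methanol and frozen at a controlled rate in straws. By the study's methods, fresh-frozen samples were collected and flash-frozen, and sperm cells were then extracted from the testis tissue left over. The cryopreserved aliquots came from that extracted sperm. Whether the fresh-frozen samples went through the same extraction is not stated. Preparation before freezing may thus differ with the group, and its part in the differences was not tested. Both kinds of sample were thawed in the same way before RNA extraction, and the number in a name is the ID of the male. F5, a labelled fresh-frozen sample, is named among the analysed samples in the study's text, but its supplement marks F5 as excluded for its mapping rate. F5 has no column in the table and was not analysed here.

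The values were read as CPM, reads counted on a gene scaled to the library total, since the column totals lie between 992942 and 997458. Levels are mainly compared between samples. Where values of different genes are set side by side, gene length is not accounted for. Low values leave empty ranges, in C3 from 0.162 to 0.709 CPM and in C5 from 0.114 to 0.208 CPM, so a further adjustment that the sources used here do not state is possible, and read depth is unknown from the table. The study reports fewer filtered reads for each of C2, C3 and C5 than for F2 and F3, so depth differs with the group. C5 stands apart, with a median value of 2.03 CPM against 9.55 to 15.7 CPM in the other samples and 2664 features listed at 0. C3 lay nearest to fresh-frozen sperm: on the log2(CPM + 1) scale the median difference of all 27255 features tested from the fresh-frozen mean was -0.21 in C3, -0.74 in C2 and -1.93 in C5. The label of sperm was checked on late germ cell and flagellum markers, of which 11 of 12 names were found, as 14 features. Their summed values were 892 CPM (F2) and 900.4 CPM (F3) fresh-frozen against 7019 (C2), 3794 (C3) and 13716 CPM (C5) cryopreserved, and 6 of the 14 features (*tekt1*, *odf3b*, *rsph1*, *ccdc39* and both of *spag6*) were higher in cryopreserved sperm as DEGs, against 1.54% of all features. In 10 of the 14 every cryopreserved sample was higher, against 13.6% of all features. In 2 of the 14, both of them among the 3 *dnah9* features, every cryopreserved sample was lower, against 41.7% of all features. The 1 of these 2 with the higher values had 362 CPM (F2) and 390.1 CPM (F3) fresh-frozen against 95.9 (C2), 323 (C3) and 12.9 CPM (C5) cryopreserved. Only *tssk6* of that list was not found by name. In bulk samples like these, fewer cells of a type and less RNA per cell cannot be told apart.

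Differences were tested with limma on log2(CPM + 1), and a gene was called a DEG when its log2 fold change exceeded 2 in either direction with an FDR below 0.05 over all features tested. By this rule 0 of the 9 genes were called, where 0% of all features were called lower and 1.54% higher in cryopreserved sperm. The FDR of the 9 lay between 0.244 and 0.297 by limma with Benjamini-Hochberg adjustment. Without adjustment, 3 of the 9 (*tdo2b*, *ido1* and *hpda*) had a *p*-value below 0.05 by limma in the lower direction, as did 11.3% of all features. A log2 fold change below -2 was found in 4 of the 9, against 19.6% of all features.

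Every cryopreserved sample lay below both fresh-frozen samples in 8 of the 9 genes, the exception being *hpdb*, and in 41.7% of all features tested. The 9 genes had a median log2 fold change of -1.99, and all features one of -1.02. Since the median of all features was itself negative, each gene is also given relative to that median of -1.02, and all 9 lay below it, by 0.53 for *fah* to 1.84 for *ido1* on the log2 scale. For 2 samples against 3 the smallest p an exact permutation test can give is 0.1, so none was run on single genes.

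**Figure D1:**
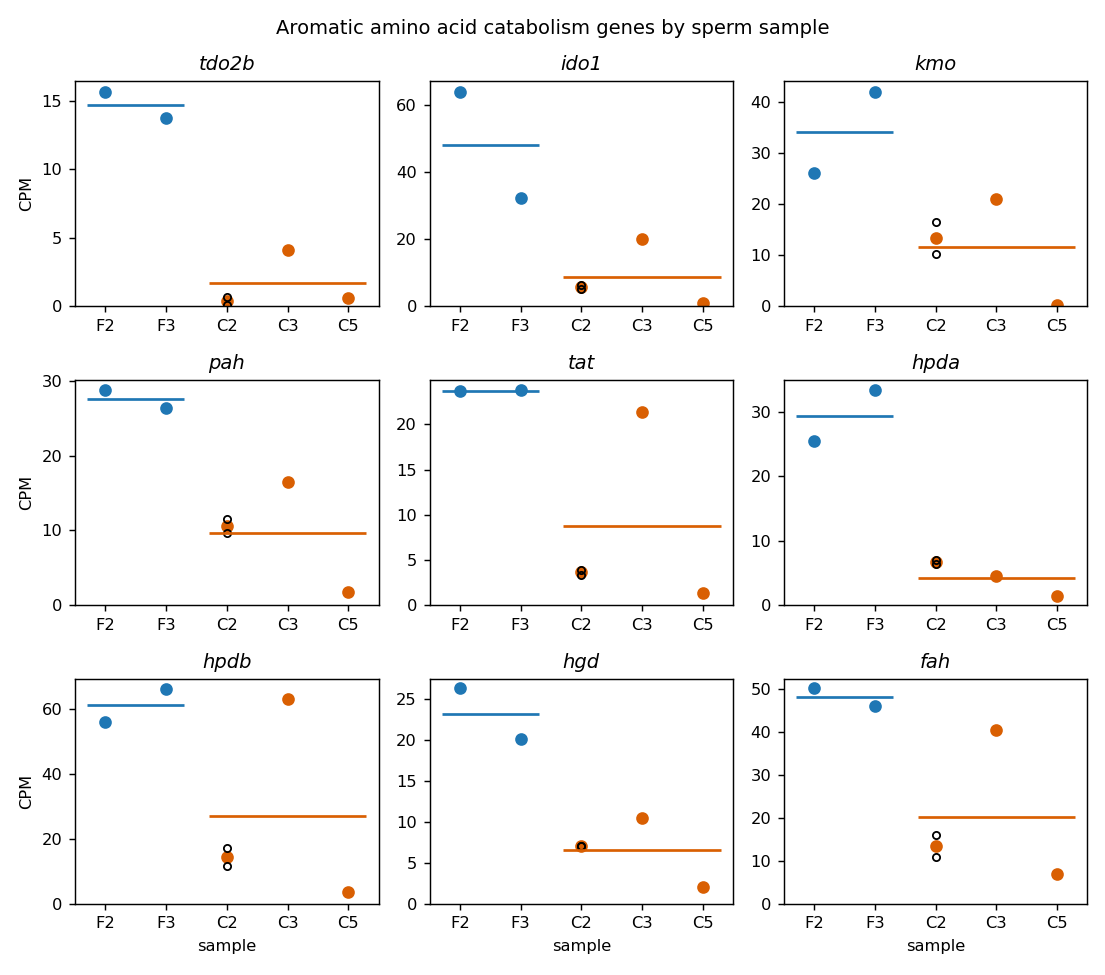
CPM (y axis, from 0) of each of the 9 genes in fresh-frozen samples F2 and F3 (blue) and cryopreserved samples C2, C3 and C5 (orange), with horizontal lines at the group means and open circles for the technical replicates of C2. C5 is the lowest sample for 8 of the 9 genes (C2 for *tdo2b*), and for *hpdb* the C3 value of 63.1 CPM lies between F2 and F3.

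The tryptophan dioxygenase gene *tdo2b* (AUIFUG00000008810), whose product catalyses the first step of tryptophan breakdown in liver, had 15.7 CPM in F2 and 13.8 CPM in F3. It had 0.383 CPM in C2, 4.10 CPM in C3 and 0.580 CPM in C5, so the groups did not overlap and C3 was the highest cryopreserved sample. The group means were 14.7 ± 1.34 CPM (SD, n = 2) and 1.69 ± 2.09 CPM (SD, n = 3), the widest ratio of means among the 9 genes at 8.72-fold. On the log2(CPM + 1) scale the fold change was -2.81 (standard error 0.93, FDR = 0.244 by limma with Benjamini-Hochberg adjustment), and 2.58% of all features had a lower one. The technical replicates of C2 gave 0.0610 and 0.705 CPM for this gene. The first of these columns holds no value between 0.112 and 0.620 CPM, so the 2 readings lie on either side of an empty range, and levels this low are only coarsely resolved. With the male as a replicate block, which rests on males 2 and 3, *tdo2b* was called, at -2.56 (FDR = 0.0254 by limma), and it was the only 1 of the 9, where 0.44% of all features were called lower. That fit has 1 residual degree of freedom. The prior that limma estimated there has infinite degrees of freedom, so the variances come wholly from it.

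The other dioxygenase gene, *ido1* (AUIFUG00000007761), was the most uneven of the 9 in fresh-frozen sperm, with 64.1 CPM in F2 and 32.4 CPM in F3, a 1.98-fold difference between males. Cryopreserved samples had 5.82 CPM in C2, 19.99 CPM in C3 and 0.865 CPM in C5. All 3 lay below F3, the lower fresh-frozen sample. The group means were 48.3 ± 22.4 CPM (SD, n = 2) and 8.89 ± 9.93 CPM (SD, n = 3), and the log2 fold change was -2.86 (standard error 1.13, FDR = 0.265 by limma with Benjamini-Hochberg adjustment), the lowest of the 9. Within males, C2 held 9.07% of the F2 value and C3 held 61.6% of the F3 value.

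The kynurenine hydroxylase gene *kmo* (AUIFUG00000018014) had 26.2 CPM in F2 and 42.1 CPM in F3, against 13.4 CPM in C2, 21.0 CPM in C3 and 0.210 CPM in C5, just above the empty range of that sample. C5 thus held 0.614% of the fresh-frozen mean, the smallest share of any of the 9 genes in that sample. C2 and C3 held 39.2% and 61.5%, and within males the share was nearly equal, 51.1% in male 2 and 49.9% in male 3. Its fold change on the log2 scale was -2.24 (standard error 1.25, FDR = 0.278 by limma with Benjamini-Hochberg adjustment), and -0.94 without C5.

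Among genes of the phenylalanine and tyrosine route, the phenylalanine hydroxylase gene *pah* (AUIFUG00000024106) had 28.8 CPM in F2 and 26.4 CPM in F3. In cryopreserved sperm it had 10.5 CPM in C2, 16.5 CPM in C3 and 1.696 CPM in C5. The samples of the groups did not overlap, and the log2 fold change was -1.81 (standard error 1.05, FDR = 0.286 by limma with Benjamini-Hochberg adjustment). The tyrosine aminotransferase gene *tat* (AUIFUG00000006050) was almost equal in the fresh-frozen samples, at 23.7 and 23.8 CPM. C3 came close to them with 21.4 CPM, while C2 had 3.61 CPM and C5 had 1.36 CPM, so the cryopreserved samples were spread far more widely than the fresh-frozen ones. The log2 fold change of *tat* was -1.99 (standard error 1.12, FDR = 0.278 by limma with Benjamini-Hochberg adjustment).

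Both copies of the hydroxyphenylpyruvate dioxygenase gene were measured, and they differed in C3. *hpda* (AUIFUG00000011930) had 25.5 CPM in F2 and 33.4 CPM in F3, against 6.65 (C2), 4.59 (C3) and 1.38 CPM (C5). It is the gene of the 9 whose change was largest in C3, which held 15.6% of the fresh-frozen mean. *hpdb* (AUIFUG00000008226) had 56.1 CPM in F2 and 66.4 CPM in F3, against 14.5 (C2), 63.1 (C3) and 3.53 CPM (C5). Here C3 held 103% of the fresh-frozen mean, so the groups overlapped. The ratio of *hpda* to *hpdb* was 0.454 in F2, 0.504 in F3, 0.460 in C2 and 0.39 in C5, but 0.0727 in C3. A single sample carries this departure, and no test was made of it. The counting could have split reads between similar copies of a gene, which was not tested. The log2 fold change was -2.69 for *hpda* (standard error 0.98, FDR = 0.265 by limma with Benjamini-Hochberg adjustment) and -1.91 for *hpdb* (standard error 1.09, FDR = 0.281 by the same limma fit).

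For the last steps of the route, the homogentisate dioxygenase gene *hgd* (AUIFUG00000015085) had 26.2 CPM (F2) and 20.1 CPM (F3) fresh-frozen against 7.03 (C2), 10.5 (C3) and 2.04 CPM (C5) cryopreserved. The technical replicates of C2 were nearly the same for this gene, 7.05 and 7.01 CPM. Its log2 fold change was -1.87 (standard error 0.995, FDR = 0.271 by limma with Benjamini-Hochberg adjustment). The fumarylacetoacetase gene *fah* (AUIFUG00000023191), which completes tyrosine breakdown, had 50.3 CPM (F2) and 46.0 CPM (F3) fresh-frozen against 13.5 (C2), 40.5 (C3) and 6.87 CPM (C5) cryopreserved. It kept the largest share in C5, 14.3% of the fresh-frozen mean, and had the smallest log2 fold change of the 9 at -1.55 (standard error 0.94, FDR = 0.297 by limma with Benjamini-Hochberg adjustment).

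The cryopreserved samples differed in how far they reached. In C2, 9 of the 9 genes lay more than 1 below the fresh-frozen mean on the log2(CPM + 1) scale, against 42.9% of all features. In C5 9 of 9 did, against 67.5% of all features, and in C3 4 of 9 did, against 12.2%. The 4 in C3 were *tdo2b*, *ido1*, *hpda* and *hgd*. For the 9 genes together the median difference was -0.71 in C3, against -1.98 in C2 and -3.41 in C5, each below the median of all features in the same sample. Nearest to the C3 median of all features were *tat*, *hpdb* and *fah*: *tat* was 0.06 and *hpdb* 0.25 above it, and *fah* was 0.04 below it, at -0.24 against -0.21. *hpda* in C3 and *tdo2b* in C2 lay farthest out among all features, since 0.319% of features had a lower difference than *hpda* in C3 and 0.477% a lower one than *tdo2b* in C2. In C5 *kmo* and *ido1* were the lowest, with 4.90% and 6.60% of features below them.

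**Figure D2:**
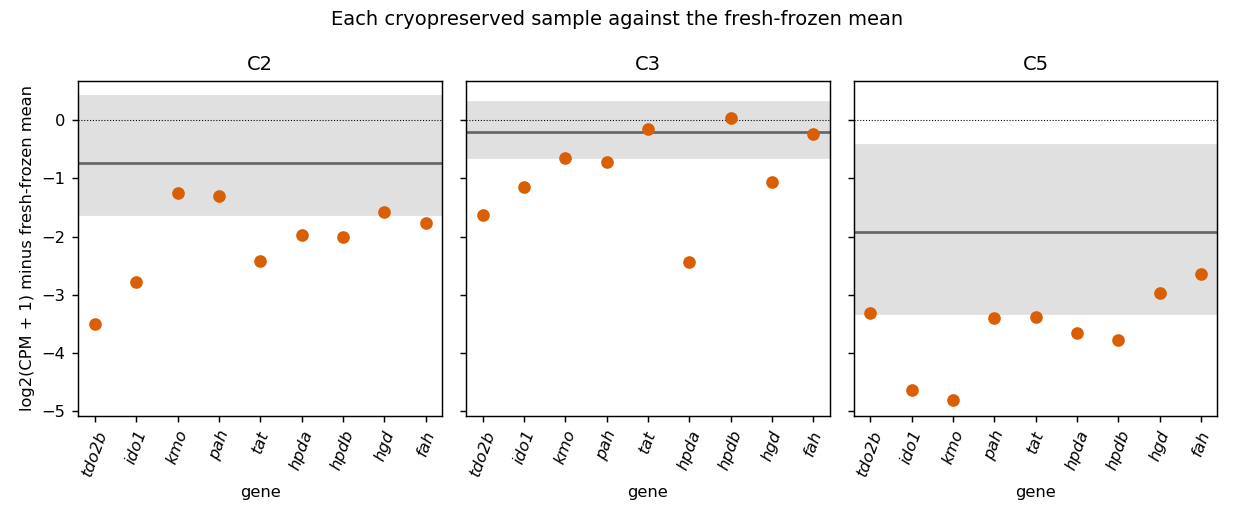
Difference of log2(CPM + 1) from the fresh-frozen mean (y axis) for each of the 9 genes (orange points) in C2, C3 and C5, with the interquartile range of all features tested in grey, their median as a grey line and a dotted line at 0. In C3 *tat*, *hpdb* and *fah* sit near the median of -0.21 while *hpda* is at -2.43, and in C2 *tdo2b* is the lowest point at -3.50.

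The higher of the C2 technical replicates exceeded the lower by a ratio of 1.01 in *hgd* to 1.60 in *kmo*, except in *tdo2b*, where the ratio was 11.6. Over all features tested the median of that ratio was 1.32.

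Leaving out C3 moved the number of calls most. Without it, 7 of the 9 were called lower by limma, all but *pah* and *hgd*, in a fit where 25.6% of all features were called lower. Without C2, 0 of 9 were called, in a fit where 0% of all features were called lower. Without C5, 0 of 9 were called, where 0.0915% of all features were called lower. Without C5 the 9 log2 fold changes lay between -2.56 for *tdo2b* and -0.94 for *kmo*, against a median of -0.53 over all features. After TMM rescaling the log2 fold changes were smaller, from -1.96 for *tdo2b* to -0.41 for *fah*, with a median over all features of -0.16. The groups were then apart in 5 of the 9 genes (*tdo2b*, *ido1*, *hpda*, *pah* and *hgd*), where 17.8% of all features had every cryopreserved sample lower. All 9 genes kept a negative fold change, and stayed below the median of all features, in the fit without the block and in each of the 17 alternatives run.

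**Figure D3:**
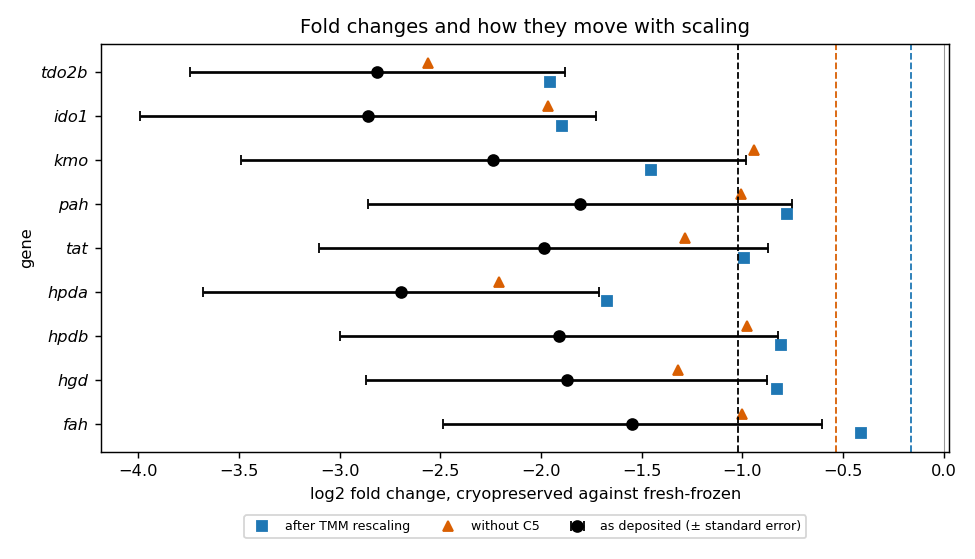
Log2 fold change of cryopreserved against fresh-frozen sperm (x axis) for each gene as deposited (black, bars are standard errors from limma), after TMM rescaling (blue squares) and without C5 (orange triangles). Dashed lines in the same colours mark the median of all features at -1.02, -0.16 and -0.53, and every gene lies to the left of the line of its own colour.

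Other genes of these pathways were then read from lists. Of other kynurenine pathway genes, a list that holds the later steps and the dioxygenase gene *ido2*, 9 of 12 names were found, as 11 features, with a median log2 fold change of -1.55. None was a DEG by limma, 2 had an unadjusted *p* below 0.05 in the lower direction, against 11.3% of all features, and 1 in the higher direction, against 6.89%. In 8 of the 11 every cryopreserved sample was lower, against 41.7% of all features, and in 1 every one was higher, against 13.6%. The lowest was *ido2*, which like *ido1* encodes an enzyme of the first step, with 30.2 CPM (F2) and 26.9 CPM (F3) fresh-frozen against 2.58 (C2), 5.77 (C3) and 0.0515 CPM (C5) cryopreserved. Its log2 fold change was -3.33 (FDR = 0.210 by limma with Benjamini-Hochberg adjustment). The C5 value of *ido2* lay below the empty range of that sample, 0.114 to 0.208 CPM, where levels are only coarsely resolved. Values of *kyat3*, a kynurenine aminotransferase gene, were higher in every cryopreserved sample, with 28.1 CPM (F2) and 18.2 CPM (F3) fresh-frozen against 116 (C2), 97.9 (C3) and 135 CPM (C5) cryopreserved. It had the highest log2 fold change of the list, 2.30 (FDR = 0.175 by limma with Benjamini-Hochberg adjustment), and also the highest mean.

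A list around tyrosine breakdown outside the 9 genes had 5 of 8 names found: *gstz1*, *got1*, *hpdl*, *fahd1* and *fahd2a*. *hpdl*, *fahd1* and *fahd2a* have names like those of genes of the route, and whether they act in it was not tested. The median log2 fold change was -0.43, the value of *fahd1*, and *gstz1* had -0.65. By limma there were 0 DEGs and 1 unadjusted *p* below 0.05, that of *fahd2a* in the higher direction, against 6.89% of all features. *fahd2a*, which encodes a protein with a fumarylacetoacetase-like domain, had 17.5 CPM (F2) and 13.99 CPM (F3) fresh-frozen against 71.3 (C2), 32.8 (C3) and 115 CPM (C5) cryopreserved. The aspartate aminotransferase gene *got1* was the lowest of this list at -1.42 on the log2 scale. A further list held genes that make or recycle tetrahydrobiopterin, the cofactor of phenylalanine hydroxylase, and *dnajc12*, which does neither. Of its 13 names 5 were found, with a median of -1.84, the value of *dnajc12*. By limma it had 0 DEGs and 1 unadjusted *p* below 0.05, in the higher direction, against 6.89% of all features. That 1 was *pcbd1*, for the dehydratase that recycles the cofactor, which had 2.90 CPM (F2) and 5.17 CPM (F3) fresh-frozen against 27.5 (C2), 16.8 (C3) and 34.5 CPM (C5) cryopreserved. The dihydropteridine reductase gene *qdpra* stood at the other end with a log2 fold change of -1.95.

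For synthesis of amines, hormones and pigment, 12 of 14 names were found as 13 features, of which 0 were DEGs and 0 had an unadjusted *p* below 0.05 by limma. Their median of -1.13 lay near that of all features. *ddc*, the decarboxylase that forms dopamine and serotonin, was the lowest at -2.42, with 162 CPM (F2) and 150.1 CPM (F3) fresh-frozen against 56.9 (C2), 112 (C3) and 2.87 CPM (C5) cryopreserved. The highest was *tyr*, the tyrosinase gene of pigment cells, in 1 of its 2 features, at -0.07. For uptake of aromatic amino acids, 6 of 14 names were found, with a median of -1.63, 0 DEGs by limma and 1 unadjusted *p* below 0.05 in each direction. *slc3a2a*, the heavy chain of amino acid exchangers, had 116 CPM (F2) and 87.2 CPM (F3) fresh-frozen against 1156 (C2), 403 (C3) and 98.7 CPM (C5) cryopreserved, so that C5 lay within the fresh-frozen range. *slc43a2b* was the lowest at -2.39. Of 10 names around the aryl hydrocarbon receptor, a receptor for kynurenine, 5 were found with a median of -0.63 and no unadjusted *p* below 0.05 by limma, from *arnt2* at -1.90 to *arnt* at 0.14.

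**Figure D4:**
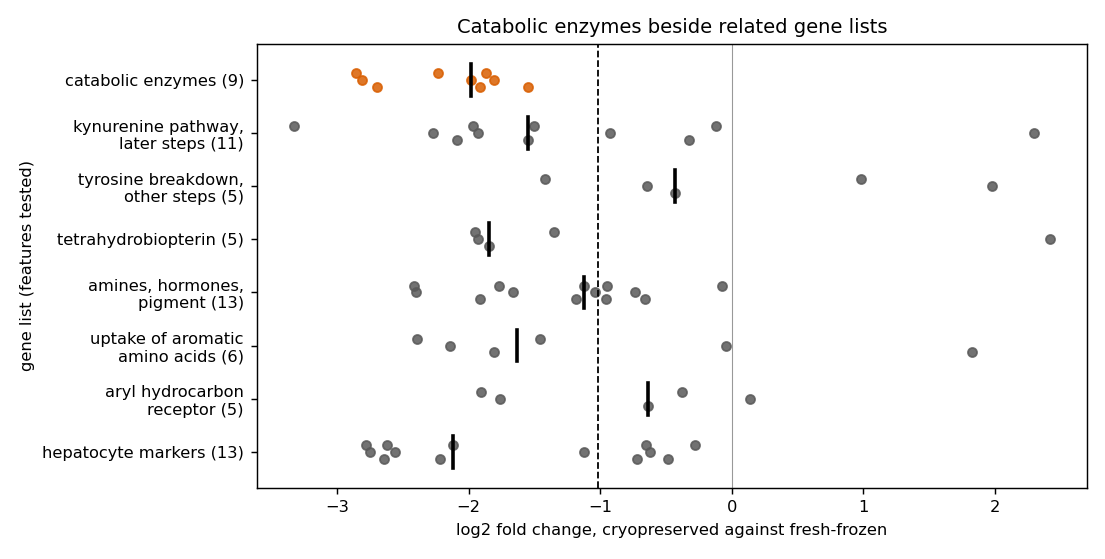
Log2 fold change of cryopreserved against fresh-frozen sperm (x axis) for every feature tested in the 9 catabolic genes (orange) and in each related list (grey), with a black bar at the list's median and a dashed line at the median of all features, -1.02. The 9 genes lie between -2.86 and -1.55, while *kyat3*, *fahd2a*, *hpdl*, *pcbd1*, *slc3a2a* and *arnt* are the points above 0.

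Since liver expresses most of this route, hepatocyte markers were read beside it. Of 20 names, 13 were found, with summed values of 806 CPM (F2) and 848 CPM (F3) fresh-frozen against 209 (C2), 665 (C3) and 27.4 CPM (C5) cryopreserved, and a median log2 fold change of -2.12. They were 0 DEGs by limma, with 3 unadjusted *p* below 0.05, all lower, against 11.3% of all features. Most of the sum was *cps1*, the urea cycle enzyme, at 426 and 469.9 CPM in fresh-frozen sperm, and *f2*, prothrombin, at 115 and 105 CPM. In 7 of the 13 (*cps1*, *f2*, *itih2*, *fgg*, *cp*, *fabp10a* and *hp*) every cryopreserved sample was lower, and in the other 6 (*apoa1b*, *apoa2*, *fga*, *fgb*, *tfa* and *ambp*) the groups overlapped, against 41.7% of all features lower in this way. The 6 that overlapped had only 0.899 to 6.32 CPM in fresh-frozen sperm. Among them *fga* and *fgb* each had 2.90 CPM (F2) and 5.64 CPM (F3), against 84.9 and 83.0 CPM for *fgg*. *apoa2* and *apoa1b* were listed at 0 in C5. The sum of the list, set mostly by *cps1* and *f2*, was highest in fresh-frozen sperm, then in C3, C2 and C5. Whether hepatocyte RNA was present was not tested. Of the 9 genes, 7 shared this order of the cryopreserved samples (all but *tdo2b* and *hpda*). So did the median difference of all features from the fresh-frozen mean, at -0.21 in C3, -0.74 in C2 and -1.93 in C5 on the log2(CPM + 1) scale. The share of all features with this order was not computed, and the part of hepatocyte RNA in the result was not tested.

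The features with a symbol whose values lay nearest to those of *tdo2b* over the 5 samples, by Euclidean distance on the log2(CPM + 1) scale, were *ahsg* at 0.57, *abhd15* at 0.65 and *LOC108270267* at 0.70. *ahsg*, a secreted liver glycoprotein in mammals, had 10.9 CPM (F2) and 15.2 CPM (F3) fresh-frozen against 0.374 (C2), 3.38 (C3) and 0.413 CPM (C5) cryopreserved. *abhd15* had 14.9 CPM (F2) and 11.9 CPM (F3) against 0.394 (C2), 6.18 (C3) and 0.220 CPM (C5). *LOC108270267* had 12.4 CPM (F2) and 12.6 CPM (F3) against 1.03 (C2), 4.89 (C3) and 0.389 CPM (C5). *gapdh*, the reference gene of the study's qRT-PCR that included *tdo2b*, did not overlap between the groups either, at 121 CPM (F2) and 142 CPM (F3) fresh-frozen against 20.8 (C2), 75.3 (C3) and 1.37 CPM (C5) cryopreserved. Its log2 fold change of -3.06 (standard error 1.23) had an FDR of 0.265 by limma. Every cryopreserved sample was likewise lower in 41.7% of all features tested. The study reports that *tdo2b* was lower after cryopreservation in that qRT-PCR, whose values were not examined here. The qRT-PCR measured *tdo2b* relative to *gapdh*, while the values here are relative to the library total, so the measures differ. By limma the log2 fold change was -2.81 for *tdo2b* beside -3.06 for *gapdh*, and a change relative to *gapdh* was not tested here.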

How the data were processed

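RNA-seq reads of blue catfish sperm were trimmed by the authors with Trimmomatic 0.39, mapped with TopHat 2.1.1, counted per gene with HTSeq and tested with edgeR. The deposited values are named RPKM, yet column totals ran from 992942 to 997458, and they were treated as CPM. A deposited column of average log2 CPM was used only to check this unit (Spearman ρ = 1.00 with the mean of the columns). The genome build is not given in the sources used here. C2 is the mean of 2 technical replicates.

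Values were transformed to log2(CPM + 1) and fitted with limma 3.58.1 (R 4.3.3, trended prior with 8.59 degrees of freedom) over 27255 features (mean in either group above 1 CPM), with Benjamini-Hochberg adjustment. Figures used matplotlib 3.10.9. Samples share males 2 and 3 by ID, which pairs them. The single pair of male differences had a correlation of -0.0181 across features. Alternatives covered pseudocounts, filters, scaling, prior, block, technical replicates and each sample left out.

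The genes and lists were chosen with earlier results of these data known. All 9 genes are named, and from each pathway list those called, or else the highest mean and the highest and lowest fold change. Other genes named were chosen after their values were seen. Whole reads could not be recovered, so no count test, interval or floor is given. The p-values set group differences against a spread between these samples that limma moderates with its prior. The main fit leaves out the pairing by male. No sequences are shown, since the reference used here holds gene names only.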

Additional observations from a re-analysis of the deposited data

How the results depend on the processing

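With each sample left out in turn, between 0 and 7 of the 9 genes were called lower and 0 higher, and the groups did not overlap in 8 to 9. The count of 7 came from leaving out C3, where 25.6% of all features were called lower, against 0% without C2 and 0.0915% without C5. The cause was not tested. With the male as a replicate block, which pairs F2 with C2 and F3 with C3, 1 gene was called, *tdo2b*, and no other call changed. The groups did not overlap in 5 of the 9 genes after TMM rescaling (17.8% of all features) and in 8 or 9 under every other alternative, where the share of all features ran from 24.4% with median centring to 60.4% without C3. The 9 of 9 came without F2 (54.3% of all features) and without C3. These overlap counts under alternatives were added after seeing the data. Apart from the block and the fit without C3, no gene was called under any alternative, and none of the 9 changed direction. The 9 FDRs lay between 0.0986 and 0.755 over TMM rescaling, median centring and quantile normalization by limma. Quantile normalization called 0.367% of all features lower, and TMM rescaling and median centring called 0%. Over the whole table the number of DEGs higher in cryopreserved sperm was 421, but 0 with median centring, a constant prior or without C2, 156 with a pseudocount of 0.1, and up to 1840 without C3, while those lower went from 0 to 6965 without C3. A pseudocount of 0.1 in place of 1 moved *tdo2b* from -2.81 to -3.73 on the log2 scale, and one of 5 moved it to -1.60. The lowest values are only coarsely resolved, and no interval for counting error could be computed. C5 listed 2664 features at 0, F2 listed 537, F3 listed 99, and C2 and C3 listed 0. The study reports fewer filtered reads for C2, C3 and C5 than for F2 and F3, and fewer for C3 than for C5. What sets the number of features without signal was not tested. Groups of 2 and 3 samples limit every comparison, and preparation before freezing may also differ with the group.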

Other observations

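Marker lists of other testis cells were read as values only. Of earlier germ cell markers, 7 of 8 names were found as 9 features, with a median log2 fold change of -0.40 and summed values of 296 CPM (F2) and 261 CPM (F3) fresh-frozen against 272 (C2), 391 (C3) and 125 CPM (C5) cryopreserved. The germ cell helicase gene *ddx4* had 140 CPM (F2) and 118 CPM (F3) fresh-frozen against 122 (C2), 156 (C3) and 69.9 CPM (C5) cryopreserved, overlapping between the groups. Sertoli and Leydig cell markers, with 3 of 7 and 3 of 6 names found, summed to between 2.59 and 26.1 CPM in any sample, with medians of -0.27 and -0.41. Red blood cell markers, 4 of 7 names as 5 features, summed to 191 and 173 CPM in F2 and F3 and to 799, 285 and 107 CPM in C2, C3 and C5, with a median of -0.77, and *alas2*, the first enzyme of haem synthesis in red cells, was highest in C2 at 637 CPM. *gata1a* was highest in C2 too, at 145 CPM, with 28.1 (F2), 28.5 (F3), 47.9 (C3) and 22.7 CPM (C5). In *hbaa1*, a haemoglobin gene, and in 1 of the 2 *rhag* features every cryopreserved sample was lower, against 41.7% of all features. *hbaa1* had 18.96 CPM (F2) and 8.58 CPM (F3) fresh-frozen against 8.56 (C2), 6.82 (C3) and 0.535 CPM (C5) cryopreserved, so C2 lay only just below F3. Leukocyte markers, 4 of 9 names, had a median of -1.79 but ran in both directions: *ptprc*, the pan-leukocyte CD45 gene, had 122 CPM (F2) and 117 CPM (F3) fresh-frozen against 36.8 (C2), 75.5 (C3) and 5.52 CPM (C5) cryopreserved, while *lcp1* had 52.5 and 37.4 CPM and then 142, 107 and 312 CPM. None of these lists held a DEG by limma.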
